A study of Mus musculus with 4 samples.

Results

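The genes described here are 10 members of the Notch pathway: the ligand genes Jag1, Jag2 and Dll1, the receptor genes Notch1, Notch2 and Notch3, and the target genes Hes1, Hey1, Hey2 and Heyl. They were taken by gene symbol, and each symbol matched 1 row among the 41029 genes of the deposited expression table. Notch is a pathway between touching cells. A ligand on the surface of a neighbouring cell binds the receptor, an ADAM protease and then gamma-secretase cut it, and the freed intracellular domain enters the nucleus, where it joins the DNA-binding protein RBPJ and a Mastermind coactivator to switch on HES and HEY genes. The HES and HEY proteins are basic helix-loop-helix repressors. In bone marrow stroma the pathway is known for holding back bone formation by mesenchymal progenitors and for presenting ligands to blood cells.

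RNA was sequenced from cultured mesenchymal stem/progenitor cells, the adherent stromal cells of bone marrow, from C57BL/6 mice. Of the 4 libraries, 2 carry the genotype label Tet2-/- (knockout 1 and 2) and 2 the label wild type (wild type 1 and 2). All were grown in MesenCult medium and carry no treatment label. The labels give no age, and do not say how the allele was made, whether animals were pooled or whether replicates are separate animals or cultures, so p-values cover no more than the spread between these samples. The Tet2 protein is a DNA dioxygenase that acts on methylated cytosines.

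Levels are in FPKM, which scale a gene's reads by its length and by the library's total. Orders, ratios and shares of different genes below therefore depend on the lengths used, which are not given. The smallest length that gave whole reads was 1519 bases for Notch1 and 8044 bases for Notch3. The exon lengths of these genes in GENCODE M21 are 14232 and 8089 bases. The total of reads over genes ran from 10096878 to 21337246 per library. Tet2 itself stood at 11.6 and 9.70 FPKM in the knockout-labelled libraries and at 7.01 and 8.39 FPKM in wild type, so it was not lower in the libraries labelled Tet2-/-. A level over the whole gene does not show whether a deleted exon is covered, and knockout 1 and 2 below mean the libraries that carry that label. The knockout-labelled pair was the more variable: the median difference between replicates was 0.35 on the log2 scale there and 0.082 in wild type. Of 10 stromal markers, 9 or 10 reached 1 FPKM in every library. Of the 9 tested, 3 lay above both wild-type libraries, 3 below both and 3 overlapped. Over all genes tested 29.4% lay above both and 24.8% below both. Eng, the endoglin gene, was lower past the threshold, at 1.53 and 1.59 FPKM in the knockout-labelled pair against 110 and 102 FPKM in wild type (adjusted p = 0.0237, limma). Nt5e, the CD73 gene, lay on the other side, at 9.46 and 61.1 FPKM against 3.28 and 3.13 FPKM, and did not pass (adjusted p = 0.286, limma). Of 8 endothelial markers at most 1 reached 1 FPKM in any library, with a summed level between 1.11 and 2.58 FPKM, and the defining endothelial cadherin gene Cdh5 was at 0 in knockout 1 and wild type 2. Of 8 haematopoietic markers 4 or 5 reached 1 FPKM, with summed levels of 52.7 and 89.2 FPKM in knockout 1 and 2 beside 84.7 and 80.6 FPKM in wild type 1 and 2. Most of these sums came from Lyz2, at 36.9 and 66.7 FPKM in knockout 1 and 2 beside 65.9 and 63.0 FPKM in wild type. The macrophage markers Cd68, Csf1r and Adgre1 were also above 1 FPKM in every library, and the T cell gene Cd3e was at 0 in all 4. Trac, a T cell receptor gene outside the marker list, stood at 2.62 and 1.60 FPKM in knockout 1 and 2. In wild type it stood at 3.53 and 2.34 FPKM. Of 6 adipocyte markers 4 were tested and none passed. All 4 lay above both wild-type libraries, as 29.4% of all genes tested did. The summed level was 224 and 65.3 FPKM in knockout 1 and 2 against 28.7 and 25.4 FPKM in wild type. Lpl, the lipoprotein lipase gene, made up most of it in knockout 1, at 190 FPKM. The defining adipocyte gene Adipoq was at 0 in wild type and at most 0.069 FPKM elsewhere. In such bulk samples fewer cells of a type and less RNA per cell cannot be told apart.

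Hes1 was by far the most abundant of the 10 genes, and it stood lower in both knockout-labelled libraries. In wild type the order of mean levels ran from Hes1 through Notch2, Notch1, Jag1, Notch3 and Dll1 down to Hey2, Hey1 and Jag2, with Heyl at 0. Coordinates below are those of GRCm38, the assembly of the build mm10 named by the submitters. The wild-type values of Jag1, Notch3 and Dll1 overlapped, so these neighbours in the order did not differ beyond their spread. Hes1 ranked 551 by mean level among all genes of the table in wild type and 1666 in the knockout-labelled libraries.

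**Figure D1:**
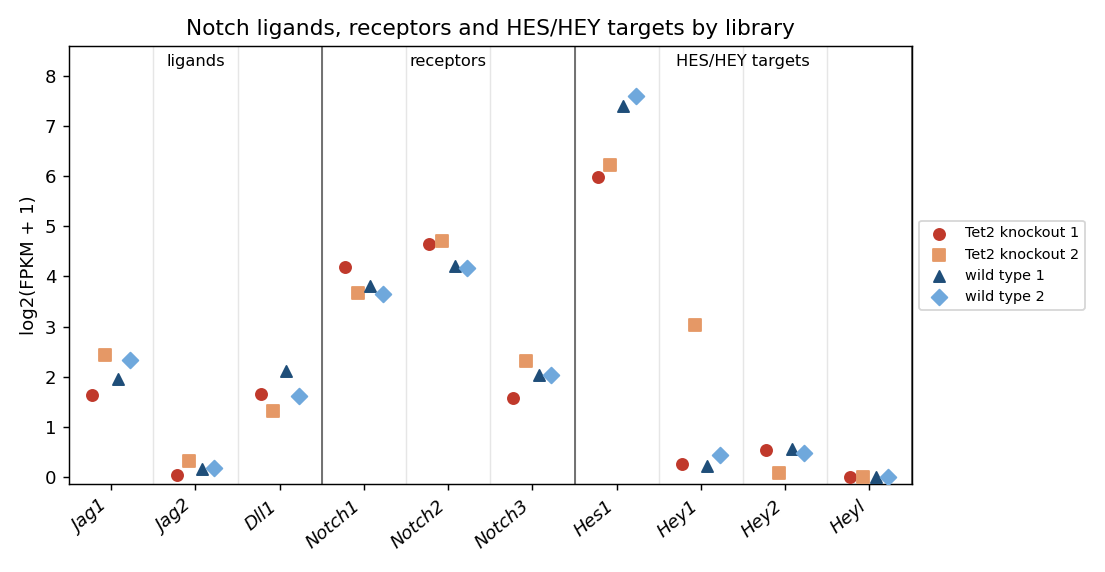
Level of each gene on the log2(FPKM + 1) scale (y axis) for ligands, receptors and targets (x axis), with 1 point per library. Hes1 lies lower in both knockout-labelled libraries, Notch2 lies higher in both, and the Hey1 point of knockout 2 (7.14 FPKM) stands away from the other 3 libraries.

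Differences between the groups were tested with limma on log2(FPKM + 1) over the 12344 genes averaging 1 FPKM or more in the 4 libraries, with Benjamini-Hochberg adjustment, and are given as knockout-labelled minus wild type. Jag1, Dll1, Notch1, Notch2, Notch3, Hes1 and Hey1 passed that filter, while Jag2, Hey2 and Heyl were too low to be tested. Hey1 passed it through knockout 2 alone. No member passed an adjusted p of 0.05 in either direction in limma, with 2 of the 7 at an unadjusted p under 0.05, and none passed with voom on reads worked out from the FPKM. Of all genes tested 0.0162% passed, 0.0081% higher and 0.0081% lower. For a single gene the smallest p that an exact permutation test can give with 2 and 2 libraries is 0.333.

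The 2 groups did not overlap for 2 of the 7 tested members: Notch2 lay above both wild-type libraries and Hes1 below both. Over all tested genes 29.4% lay above both and 24.8% below both, 54.2% in all, so the members' count is below the background. Each knockout-labelled library was then set against each wild-type library on the log2(FPKM + 1) scale, where 2-fold is a difference of 1. At least a 2-fold difference throughout was met on the lower side by 1 member, Hes1, where 1.13% of all genes were found. No member met it on the higher side, where 0.794% of all genes did. At an unadjusted p under 0.05, 8.84% of all genes were higher and 8.29% lower. The median log2 difference of the 7 members was -0.092, beside 0.030 for all genes tested.

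Jag1 (ENSMUSG00000027276, chromosome 2, 137081456 to 137116644, minus strand) encodes Jagged1, a ligand with a cysteine-rich domain that is made by osteoblastic and other stromal cells. Its level was 2.12 FPKM in knockout 1, 4.38 FPKM in knockout 2, 2.86 FPKM in wild type 1 and 4.02 FPKM in wild type 2, so the knockout-labelled values lay on either side of the wild-type ones. The log2 difference was -0.10 (limma 95% interval -1.07 to 0.87, adjusted p = 0.896). Dll1 (ENSMUSG00000014773, chromosome 17, 15367354 to 15376872, minus strand) encodes the ligand Delta-like 1. It stood at 2.16 and 1.49 FPKM in the knockout-labelled libraries and at 3.31 and 2.07 FPKM in wild type, and the groups overlapped because knockout 1 lay just above wild type 2. Its log2 difference was -0.37 (SE 0.28, adjusted p = 0.527, limma), from between 38 and 44 reads per library. These read numbers were worked out from the FPKM and are lower bounds. The genes nearest to Dll1 in pattern over the 4 libraries, by the distance explained below for Hes1, were Gm19587 (0.047), the histone gene Hist1h1d (0.11) and Trac (0.11), among 2406 genes within 0.5 of it.

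Jag2 (ENSMUSG00000002799, chromosome 12, 112907819 to 112929776, minus strand), the gene of the other Jagged ligand, was near the limit of detection in every library. It stood at 0.031 and 0.243 FPKM in the knockout-labelled libraries and at 0.122 and 0.125 FPKM in wild type, from at least 2, 21, 5 and 9 reads in that order. Of the ligands outside the 10 genes, Dll4, best known from endothelium, had no read in any library. Dll3, a divergent ligand, stood at 0.092 and 0.034 FPKM in the knockout-labelled libraries and had no read in wild type. The summed level of the 5 ligand genes was 4.41 FPKM in knockout 1 and 6.15, 6.29 and 6.22 FPKM in knockout 2, wild type 1 and wild type 2. Jag1 made up 48.1% and 71.3% of it in the knockout-labelled libraries beside 45.4% and 64.7% in wild type, so this share varied more within each group than between the group means.

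Notch2, which encodes the receptor mutated in a human skeletal disorder with bone loss, was the most abundant receptor gene in every library and the single receptor whose groups separated. It stood at 24.2 and 25.2 FPKM in the knockout-labelled libraries and at 17.6 and 17.0 FPKM in wild type. Both knockout-labelled values were above both wild-type values, and each pair of replicates was close. The means, 24.7 ± 0.70 and 17.3 ± 0.421 FPKM (SD, n = 2 each), differed 1.43-fold, and the log2 difference of 0.49 (SE 0.12) did not pass after adjustment (adjusted p = 0.234, limma). At an unadjusted p of 0.0147 it ranked 770 of the 12344 genes. The gene (ENSMUSG00000027878) lies on the plus strand of chromosome 3, from 98013527 to 98150361.

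The 250 bases before the annotated start of Notch2 and the 10 after it are shown because this is the receptor gene whose values did not overlap between the groups (RefSeq, GRCm38.p6, plus strand, chr3:98013288-98013547). Capitals mark the N-box, CACNAG or its reverse complement CTNGTG, a sequence that HES proteins can bind.
Notch2: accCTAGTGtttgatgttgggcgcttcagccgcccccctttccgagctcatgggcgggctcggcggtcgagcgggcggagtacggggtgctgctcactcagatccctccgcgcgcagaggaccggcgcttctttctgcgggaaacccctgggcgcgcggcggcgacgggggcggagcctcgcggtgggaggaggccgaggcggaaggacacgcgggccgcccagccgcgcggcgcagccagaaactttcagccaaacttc
Promoter windows of 300 bases, from 250 before to 50 after a gene's start, were searched on both strands for the N-box, for the core RBPJ motif TGGGAA, for its longer form CGTGGGAA, which holds the core, and for the E-box CACGTG. Among all 32851 such windows in mouse, 42.5% hold the N-box, 25.6% the core RBPJ motif, 0.734% the longer form and 7.15% the E-box. The Notch2 window holds 1 N-box, at base -247 from the start, and none of the other motifs. The windows of Notch1 and Notch3 hold N-boxes too, with 3 and 2 matches, and neither holds an RBPJ motif. The Notch1 matches at bases -3 and -1 overlap, 1 on each strand. For Dll1, 1 window holds an N-box, at base 14 after the start, and its other window holds none. Both Jag1 and Jag2 hold none of the 4 motifs. Of the 10 members 7 matched a window, and Hes1, Hey1 and Heyl did not.

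Notch1 (ENSMUSG00000026923, chromosome 2, 26457903 to 26516663, minus strand), the receptor best known from T cell development, was next in level. It stood at 17.1 and 11.8 FPKM in the knockout-labelled libraries and at 13.0 and 11.6 FPKM in wild type. Knockout 1 was the highest and knockout 2 lay between the wild-type libraries, so the groups overlapped. The log2 difference was 0.20 (limma 95% interval -0.42 to 0.82, adjusted p = 0.668), and it turned to -0.05 without knockout 1. The antisense transcript 0610009E02Rik overlaps Notch1 and stood at 0.897 and 0.615 FPKM in the knockout-labelled libraries beside 0.433 and 0.246 FPKM in wild type. Since no source used here says that strand was used in counting, its reads and those of Notch1 cannot be told apart where they overlap. The transcripts that overlap Notch2, Notch3 and Dll1 reached at most 0.257, 0.101 and 0.0319 FPKM. The ratio of Notch2 to Notch1 was 1.41 and 2.14 in knockout 1 and 2 and 1.36 and 1.47 in wild type 1 and 2.

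Notch3 (ENSMUSG00000038146, chromosome 17, 32120820 to 32166852, minus strand), a receptor gene typical of pericytes and vascular smooth muscle, was low. It stood at 1.97 and 3.99 FPKM in the knockout-labelled libraries and at 3.12 and 3.08 FPKM in wild type, with knockout 1 the lowest library and knockout 2 the highest. The log2 difference was -0.09 (limma 95% interval -0.96 to 0.78, adjusted p = 0.896) and had opposite signs without knockout 1 (0.28) and without knockout 2 (-0.47). Of 8 mural cell markers 5 reached 1 FPKM in 3 libraries and 7 in knockout 1, with summed levels of 2658 and 1617 FPKM in the knockout-labelled libraries beside 2409 and 2269 FPKM in wild type. Knockout 2, the highest for Notch3, had the lowest summed level of these markers, most of which came from Acta2. Of the 8 markers 5 were highest in knockout 1 and 1, Cspg4, in knockout 2. Cspg4 stood at 6.01 and 83.5 FPKM in knockout 1 and 2 beside 27.0 and 24.6 FPKM in wild type. The part of these markers in the Notch3 values was not tested. Notch4, a receptor gene known from endothelium, was highest in knockout 1, at 7.42 FPKM, and lowest in knockout 2, at 1.55 FPKM, with 2.11 and 2.0 FPKM in wild type (log2 difference 0.60, adjusted p = 0.646, limma). Of the 8 endothelial markers 5 were highest in knockout 1 and 2 in knockout 2. Tek, the angiopoietin receptor gene, was at 0.459 FPKM in knockout 1, 0.014 in knockout 2 and 0.058 and 0.049 in wild type. Vwf went the other way, at 0.616 and 1.14 FPKM in knockout 1 and 2 beside 0.744 and 0.613 in wild type. Cdh5 was at 0 in knockout 1. Their part in the Notch4 values was not tested.

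The 4 receptor genes together came to 50.7 and 42.5 FPKM in knockout 1 and 2 and to 35.8 and 33.6 FPKM in wild type 1 and 2. The sum was higher in both knockout-labelled libraries, and 29.4% of single genes tested lay above both wild-type libraries as well. Of the 4 receptor genes Notch2 alone did so. Notch2 made up 47.7% and 59.3% of the sum in the knockout-labelled libraries beside 49.1% and 50.5% in wild type. The share of Notch4 was 14.6% in knockout 1, 3.64% in knockout 2 and 5.90% and 5.95% in the wild-type libraries.

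**Figure D2:**
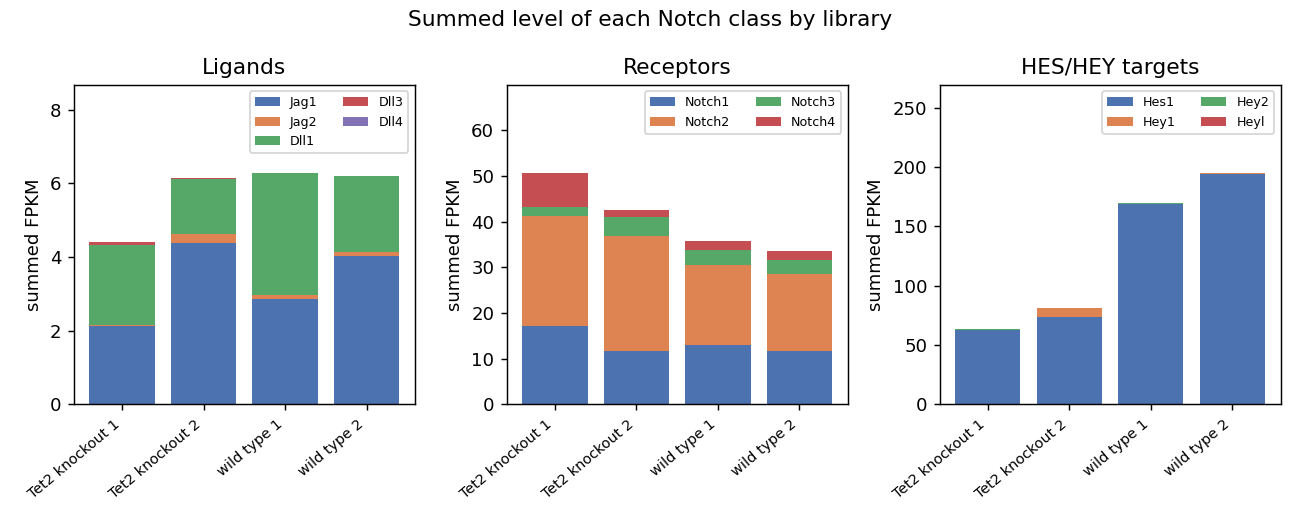
Summed FPKM (y axis, from 0) of the ligand genes, the receptor genes and the 4 HES/HEY targets in each library (x axis), stacked by gene. The HES/HEY sum is nearly all Hes1 and is 169 and 195 FPKM in wild type beside 63.0 and 80.9 FPKM in the knockout-labelled libraries. The receptor sum is higher in the knockout-labelled libraries, and Notch2 alone of its genes is higher in both.

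Hes1, the target gene that Notch signals switch on in many cell types and that other pathways use as well, had the smallest p of the tested members. Its level was 62.4 FPKM in knockout 1, 73.7 FPKM in knockout 2, 169 FPKM in wild type 1 and 194 FPKM in wild type 2. Both knockout-labelled values were less than the lower wild-type value by a wide margin, and no library stood away from its replicate. The means were 68.0 ± 7.98 and 182 ± 17.9 FPKM (SD, n = 2 each), 2.67-fold higher in wild type, and the log2 difference was -1.40 (SE 0.15, 95% interval -1.83 to -0.98). With an unadjusted p of 0.000794 it ranked 65 of 12344 genes, yet it did not pass after adjustment (adjusted p = 0.151, limma). The values rest on at least 707 and 1124 reads in knockout 1 and 2 beside 1219 and 2469 reads in wild type 1 and 2. Hes1 (ENSMUSG00000022528) lies on the plus strand of chromosome 16, from 30064384 to 30067796. The adipocyte marker levels given above separated the same libraries as Hes1 and Notch2 did, and so did 54.2% of all genes tested. The part of these markers in the Hes1 and Notch2 results was not tested.

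The difference of Hes1 had the same sign under each alternative run, from -1.29 to -1.52 on the log2 scale when 1 library was left out. It passed without knockout 1 or without knockout 2 (adjusted p = 2.78e-05 and 3.91e-05, limma), fits that take the remaining knockout-labelled library to vary as little as wild type and in which 60.1% and 46.5% of all genes passed. Without wild type 1 or 2 it did not pass (adjusted p = 0.999 and 1, limma). The genes whose pattern over the 4 libraries was nearest to that of Hes1, by Euclidean distance between values centred on each gene's mean log2(FPKM + 1), were Txnip, which encodes the thioredoxin-interacting protein (distance 0.15), Fam241b (0.17) and the cadherin-related gene Cdhr1 (0.20). Txnip stood at 22.5 and 26.7 FPKM in the knockout-labelled libraries beside 60.6 and 62.8 FPKM in wild type. Within 0.5 of Hes1 by this measure there were 83 genes.

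Hey1 (ENSMUSG00000040289, chromosome 3, 8663359 to 8667256, minus strand), a Notch target gene expressed in osteoblasts, was near 0 in 3 libraries and present in knockout 2. Its level was 0.201 FPKM in knockout 1, 7.14 FPKM in knockout 2, 0.158 FPKM in wild type 1 and 0.359 FPKM in wild type 2. The high value belongs to knockout 2 alone, and knockout 1 lay between the wild-type libraries. It rests on at least 191 reads there, against at least 4, 2 and 8 in knockout 1, wild type 1 and wild type 2. The log2 difference of 1.32 had a wide interval, from -1.46 to 4.10 (adjusted p = 0.535, limma), and without knockout 2 it was -0.06. Its size depended on the pseudocount: it was 2.10 with 0.1, 2.30 with 0.01 and 2.37 in voom, short of the threshold in each.

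Osteoblast markers were mostly highest in the same library. Of 9 markers listed for that cell type, 8 were highest in knockout 2. Sp7, which encodes the osteoblast transcription factor osterix, reached 181 FPKM there, with 1.87 FPKM in knockout 1 and 5.52 and 5.73 FPKM in wild type. Dmp1, a matrix gene of late osteoblasts and osteocytes, stood at 40.8 FPKM in knockout 2 beside 0.205, 0.072 and 0.081 FPKM in the same order. The summed level of the 9 markers was 3936 and 3904 FPKM in the knockout-labelled libraries beside 1847 and 1990 FPKM in wild type, most of it from Spp1, the osteopontin gene. Of these markers, Bglap, the osteocalcin gene, stood at 65.3 FPKM in knockout 2 and 0.250 FPKM in wild type 1. It was at 0 in knockout 1 and wild type 2. The part of the osteoblast markers in the Hey1 value was not tested. The genes nearest to Hey1 in pattern were Nkd2, a Wnt inhibitor gene (distance 0.15), the receptor gene Fgfr3 (0.18) and Wfdc21 (0.18), each highest in knockout 2, at 38.1, 8.55 and 5.94 FPKM.

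**Figure D3:**
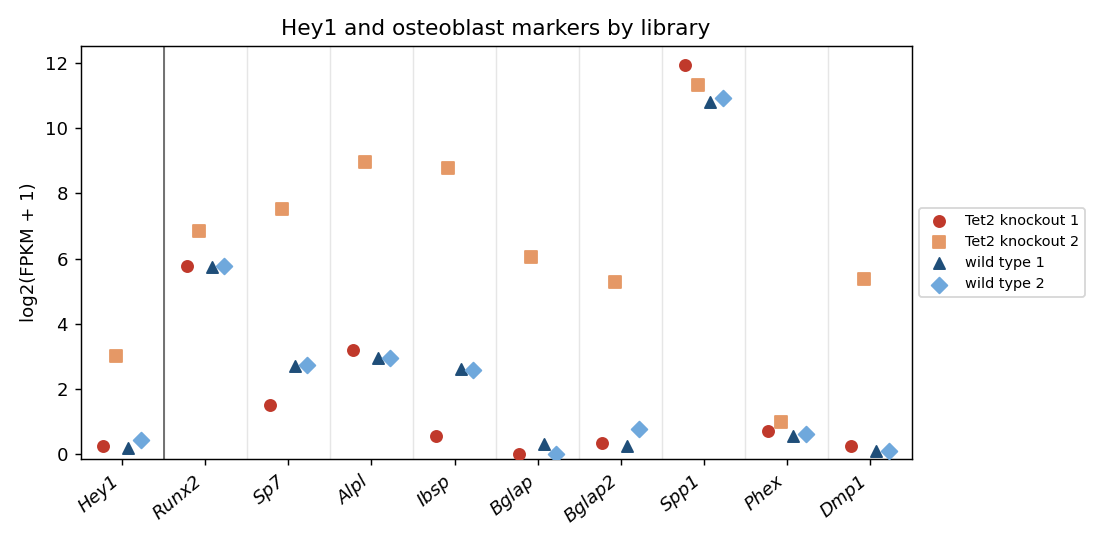
Level of Hey1 and of 9 osteoblast markers on the log2(FPKM + 1) scale (y axis), with 1 point per library. Knockout 2 is the highest library for Hey1 (7.14 FPKM) and for 8 of the 9 markers; Spp1 is highest in knockout 1.

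Hey2 (ENSMUSG00000019789, chromosome 10, 30832359 to 30842801, minus strand), known from heart and artery development, was below 0.5 FPKM in every library. It stood at 0.445 and 0.055 FPKM in the knockout-labelled libraries and at 0.466 and 0.397 FPKM in wild type, so knockout 2 was the low library, from as few as 1 read against at least 6, 4 and 6 in knockout 1, wild type 1 and wild type 2. Heyl (ENSMUSG00000032744, chromosome 4, 123233556 to 123249875, plus strand), a further member of the HEY family, had no read in any of the 4 libraries. A count of 0 allows up to 3 reads, which at the exon length of 5113 bases in GENCODE M21 would be between 0.0275 and 0.0581 FPKM in the 4 libraries, a limit for counting error only. Genes used by every cell, such as Actb, were far above 0 in all of them.

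The start of Hey2 is shown because it is the promoter among the matched members that holds the longer RBPJ motif (RefSeq, GRCm38.p6, minus strand, chr10:30842774-30843033). It has 250 bases before and 10 after the annotated start, with CGTGGGAA and its reverse complement in capitals.
Hey2: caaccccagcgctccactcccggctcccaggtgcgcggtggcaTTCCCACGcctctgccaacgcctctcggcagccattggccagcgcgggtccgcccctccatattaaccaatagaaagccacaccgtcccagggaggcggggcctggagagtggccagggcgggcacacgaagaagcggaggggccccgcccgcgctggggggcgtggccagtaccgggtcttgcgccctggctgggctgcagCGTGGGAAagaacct
This motif occurs at bases -207 and -5, where 0.734% of all windows hold it at least once. None of the other matched members holds it. A match describes the letters and does not show binding.

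Hes1 made up 99.0% and 91.1% of the summed level of the 4 HES/HEY targets in knockout 1 and 2 and 99.6% in each wild-type library. Hey1 made up 8.83% in knockout 2 and between 0.093% and 0.320% in the other 3 libraries. Of 9 other target genes listed for the pathway, 4 were tested, none passed the test, and the groups overlapped for all 4. Ccnd1, the cyclin D1 gene, stood at 312 and 235 FPKM in the knockout-labelled libraries beside 258 and 253 FPKM in wild type. Snai2, which encodes the repressor Slug, stood at 39.9 and 72.6 FPKM beside 50.7 and 52.1. Nrarp, a feedback inhibitor gene that Notch induces, and Hes5 had no read in any library, and Hes2, Hes3 and Hes7 reached at most 0.108 FPKM.

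The pathway was also followed through 65 further genes in lists by role. Of these 53 were tested, and none passed the test in limma or in voom. At an unadjusted p under 0.05 in limma, 6 of the 53 were higher and 5 lower, beside 8.84% and 8.29% of all genes. In 18 the knockout-labelled libraries lay above both wild-type ones and in 10 below both, together 28 of 53, beside 54.2% of all genes. The median log2 difference was 0.05.

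Of the 7 nuclear activators 5 lay above both wild-type libraries and 2 below both, beside 29.4% and 24.8% of all genes, and none passed the test. Rbpj, the DNA-binding partner of all Notch receptors, stood at 96.8 and 114 FPKM in the knockout-labelled libraries and at 59.3 and 63.5 FPKM in wild type. Its means of 106 ± 12.4 and 61.4 ± 2.93 FPKM (SD, n = 2 each) differed 1.72-fold, with a log2 difference of 0.77 (SE 0.14, adjusted p = 0.211, limma). Kat2b, a histone acetyltransferase gene, stood at 90.6 and 67.0 FPKM beside 51.1 and 55.2, with a log2 difference of 0.54 that did not pass (adjusted p = 0.282, limma). The ratio of Hes1 to Rbpj was 0.644 and 0.645 in knockout 1 and 2 and 2.85 and 3.06 in wild type 1 and 2. Hes1 lay below and Rbpj above both wild-type libraries, so this separation follows from the choice of genes and is no further result.

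A processed pseudogene of Rbpj, Rbpj-ps3, stood at 4.69 and 5.11 FPKM in the knockout-labelled libraries and had no read in either wild-type library. It was looked up as a copy that could share reads with Rbpj, and reads of the gene and its copy cannot be told apart with certainty. Another copy, Rbpj-ps1, reached at most 0.063 FPKM. The start of Rbpj is shown, with 250 bases before and 10 after the annotated start, as that of the DNA-binding factor itself (RefSeq, GRCm38.p6, plus strand, chr5:53590096-53590355). Capitals mark the core RBPJ motif TGGGAA and its reverse complement TTCCCA.
Rbpj: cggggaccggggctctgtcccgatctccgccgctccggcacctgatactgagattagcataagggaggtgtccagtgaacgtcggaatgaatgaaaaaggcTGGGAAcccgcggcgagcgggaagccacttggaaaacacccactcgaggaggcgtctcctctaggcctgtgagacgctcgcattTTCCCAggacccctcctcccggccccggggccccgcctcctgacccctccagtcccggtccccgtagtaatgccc
The core motif occurs at bases -149 and -65, in a window type where 25.6% hold it, and the longer form does not occur. RefSeq gives a second start for the gene, whose window overlaps this one and holds the motif of base -65 again.

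**Figure D4:**
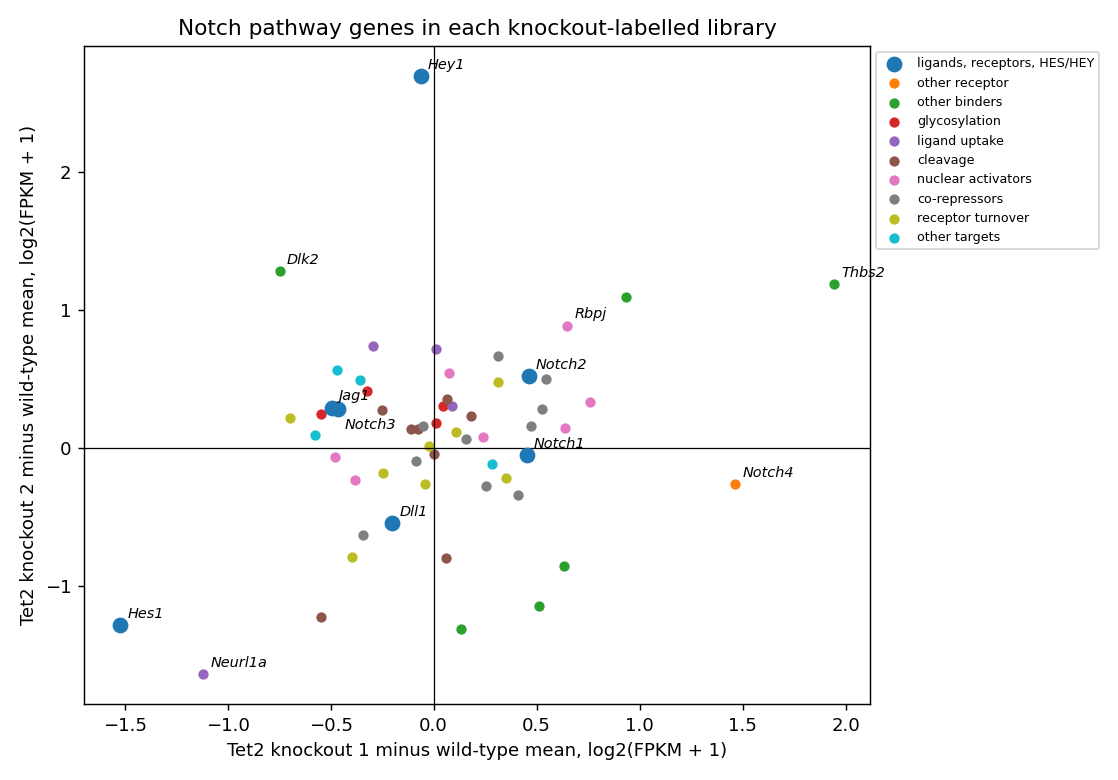
Difference of the tested pathway genes, with 1 left out, from the wild-type mean in knockout 1 (x axis) and knockout 2 (y axis), both on the log2(FPKM + 1) scale; large points are members. Hes1 and Neurl1a lie low on both axes, Notch2, Rbpj and Thbs2 high on both, and Hey1 is high on the knockout 2 axis alone. The axes share the wild-type mean.

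Among proteins outside the canonical ligands that have been reported to bind Notch, 6 of 8 genes were tested. Thbs2, which encodes the matrix protein thrombospondin 2, stood at 276 and 163 FPKM in the knockout-labelled libraries and at 70.5 and 71.1 FPKM in wild type. On the log2(FPKM + 1) scale it was the single pathway gene at least 2-fold higher in every pair, where 0.794% of all genes were found. Its log2 difference of 1.57 (SE 0.29) did not pass (adjusted p = 0.213, limma). Mfap5, a microfibril protein gene, stood at 58.2 and 20.0 FPKM beside 38.5 and 35.9, with the knockout-labelled libraries on either side. The remaining tested genes Dlk1, Dlk2, Egfl7 and Ccn3 did not pass either, and Dner and Mfap2 were below the filter. Egfl7 stood at 1.72 and 2.04 FPKM in the knockout-labelled libraries beside 0.246 and 0.628 FPKM in wild type. That is more than 2-fold higher in every pair in plain FPKM, though not on the log2(FPKM + 1) scale. Its wild-type values rest on at least 2 and 9 reads.

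Uptake of ligand pulls the bound receptor open. Its genes held the single one of the 65 further genes at least 2-fold lower in every pair on the log2(FPKM + 1) scale. Of all genes tested 1.13% were. Neurl1a, a neuralized-type ubiquitin ligase gene, stood at 2.09 and 1.15 FPKM in the knockout-labelled libraries and at 5.81 and 5.61 FPKM in wild type. Its log2 difference was -1.38 (SE 0.25, adjusted p = 0.211, limma). Mib1, the main ubiquitin ligase gene for Notch ligands, was far more abundant, at 44.4 and 51.6 FPKM beside 41.3 and 42.0, and Mib2 stood at 13.6 and 22.8 FPKM beside 15.0 and 12.1.

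Of 10 genes for the cleavage of the receptor, 9 were tested and none passed the test. Adam10, the protease of the first cut, stood at 124 and 128 FPKM in the knockout-labelled libraries beside 108 and 110 FPKM in wild type (log2 0.21, adjusted p = 0.40, limma). Ncstn, the nicastrin subunit gene of gamma-secretase, stood at 86.4 and 83.8 FPKM beside 85.9 and 86.9, with a log2 difference of -0.02 (limma 95% interval -0.32 to 0.28). Psenen, another subunit gene, lay below both, with a log2 difference of -0.88 (adjusted p = 0.260, limma), and was looked at after its values were seen. Of 5 glycosylation genes, which tune the receptors' choice of ligand, 4 were tested. Poglut1, a glucosyltransferase gene, stood at 40.6 and 48.6 FPKM beside 40.2 and 38.4, and Pofut1, the fucosyltransferase gene, at 26.7 and 30.1 beside 25.7 and 27.2. Aph1c and Mfng were below the filter.

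All 10 co-repressor genes were tested, with 5 above both wild-type libraries and 2 below both, beside 29.4% and 24.8% of all genes. Aes, which encodes a short Groucho-family protein, stood at 272 and 223 FPKM in the knockout-labelled libraries and at 350 and 341 FPKM in wild type (log2 -0.49, adjusted p = 0.263, limma). Ncor1, a scaffold of repressor complexes, stood at 90.2 and 84.4 FPKM beside 78.2 and 83.3. Of 9 genes for receptor turnover 8 were tested, with 2 above both and 3 below both, beside the same shares of all genes. Nedd4, a ubiquitin ligase gene, was the most abundant pathway gene, at 1442 and 972 FPKM beside 1118 and 1143, and its groups overlapped. Dtx3, a deltex-family gene, stood at 60.9 and 63.7 FPKM beside 76.5 and 68.6, and Dtx1 was below the filter.

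**Figure D5:**
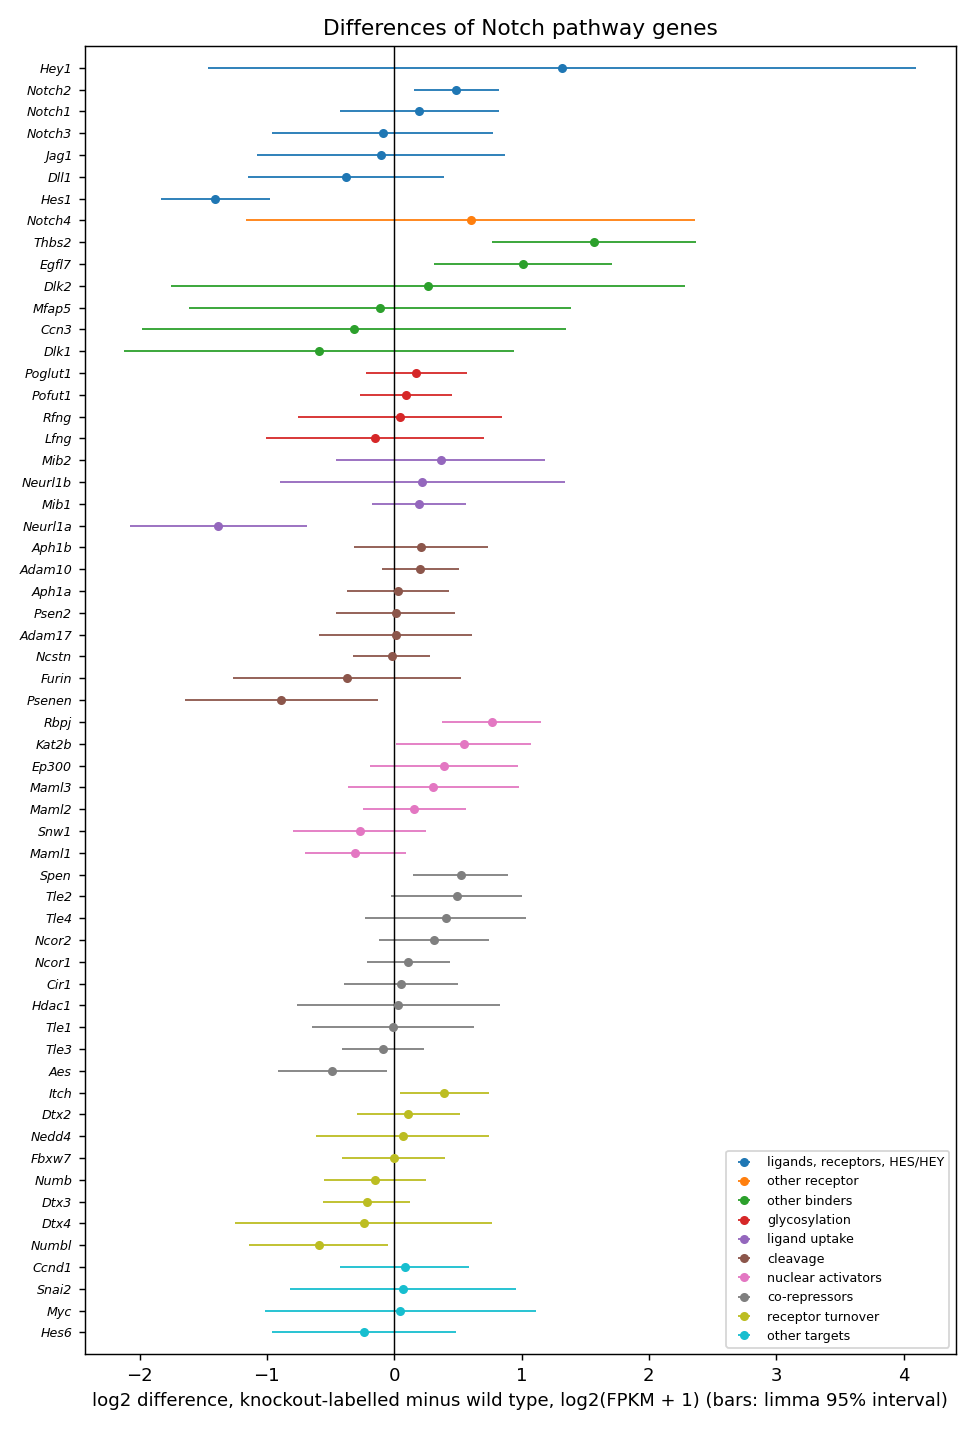
Log2 difference, knockout-labelled minus wild type (x axis), of the 7 tested members and of tested genes of the pathway lists, with 1 left out (y axis), coloured by role, with the limma 95% interval as a bar. The interval of Hes1 lies wholly below 0 and that of Notch2 wholly above it, before adjustment over 12344 genes, and that of Hey1 spans -1.46 to 4.10.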

How the data were processed

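RNA sequencing of 2 Tet2-/- and 2 wild-type libraries was deposited as 1 table of FPKM per gene, made by the authors. Per the submitters' processing notes the tools included HTSeq 0.6.1, TopHat2 2.0.12 and Bowtie2 2.2.3, with the build mm10; how gene lengths were set is not given in the sources used here. Gene names and coordinates came from GENCODE M21 (GRCm38), which holds 40535 of the 41029 identifiers. Because FPKM divide by a library's total, abundant genes that differ shift all others.

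The FPKM are quotients of whole numbers. The total and the smallest whole reads of each gene were worked out for all 25309 genes above 0, with a tolerance of 1e-06 of a read that was widened for large numbers. These reads are lower bounds and served only for depth and for voom.

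The main test was limma 3.58.1 (R 4.3.3) on log2(FPKM + 1) with a mean-variance trend, for 12344 genes averaging 1 FPKM or more. It was also run on simulated data in which both groups varied alike, unlike the libraries here. P-values are two-sided, with Benjamini-Hochberg adjustment. Alternatives covered the pseudocount, the filter, scaling, a replicate block, each library left out (over the same 12344 genes) and voom.

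The members, lists and rules were chosen with earlier results of these data known. All members are given. Of each pathway list the text names the 2 most abundant tested genes, those past the threshold and those below the filter. It also names those at least 2-fold apart in every pair on the log2(FPKM + 1) scale. For the 3 tested members with the widest range it names the 3 genes nearest in pattern. Psenen, Egfl7, Dlk1, Dlk2, Ccn3, the copies of Rbpj and the cell type markers with values were named after those values were seen. The values of 1 pathway gene are not reported here.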

Additional observations from a re-analysis of the deposited data

How the results depend on the processing

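Under a pseudocount of 0.1 or 0.01, a filter at 5 FPKM or none, trimmed-mean scaling, quantile normalization, a replicate block and voom, each tested member kept its sign and stayed short of an adjusted p of 0.05 in all 52 member fits. Genes past the threshold numbered 2, and 1 with a pseudocount of 0.1 or 0.01, and 0 with the replicate block (limma, 1328 genes at an unadjusted p under 0.05) or in voom (2044 such genes). The labels do not say whether libraries of the same number belong together. Deviations of same-numbered libraries correlated at 0.006, which with 2 libraries per group cannot show whether they do. With the replicate block the adjusted p of Hes1 was 0.381.

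Leaving out 1 library moved the counts. Genes past the threshold ran from 0 (without wild type 1 or 2, where 274 and 312 had an unadjusted p below 0.05) to 7415 (without knockout 1, 60.1% of those tested; 5734 or 46.5% without knockout 2), pathway genes from 0 to 32 and members from 0 to 4. The 3 that passed without knockout 1 were Notch2, Hes1 and Hey1, and the 4 without knockout 2 were Notch1, Notch2, Notch3 and Hes1; in these fits the lone library is assumed to vary like wild type. Tested members whose groups did not overlap numbered 2 with all libraries, 3 after quantile normalization, and from 3 (without wild type 1) to 6 (without knockout 1); over all genes the share was 54.2% with all libraries, 91.5% and 88.6% without knockout 1 and 2, and 63.6% and 64.6% without wild type 1 and 2, where a single wild-type library is left. Members at least 2-fold apart in every pair ran from 1 to 2. Log2 differences ran from -0.49 to 0.29 for Jag1 (0.09 without wild type 2), -0.054 to 0.45 for Notch1, -0.47 to 0.28 for Notch3 and -0.062 to 2.70 for Hey1, whose signs turned. Those of Hes1 (-1.52 to -1.29), Notch2 (0.46 to 0.52) and Dll1 (-0.62 to -0.13) kept theirs. The size for Hey1 was 1.32, but 2.10 and 2.30 with a pseudocount of 0.1 and 0.01 and 2.37 in voom. The low reads of Jag2, Hey2 and, outside knockout 2, Hey1 limit what their values can show.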
